A study of Mus musculus with 5 samples.

Results

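One of the 5 sequenced libraries of the series is described here, the library labelled siRNA596 replicate 2, set against the other 4 libraries. It was chosen by its column in the deposited counts table, and it was already known from the same counts to stand apart. All 5 libraries came from HT22 cells, an immortalised mouse line derived from hippocampal neurons, which were transfected with 10 nM of siRNA by INTERFERin and collected after 48 h. The other libraries are NC replicates 1 and 2 (negative control siRNA by their titles, although another of their labels calls them untreated), 1 library of cells given siRNA210, and siRNA596 replicate 1. Both siRNAs are directed against the long non-coding RNA Gas5. All groups thus share the transfection and the single cell line, there is no untransfected group, and nothing in the sources used here says that replicates were separate cultures. The comparison covered 10571 of 55487 genes, those that averaged 5 CPM or more over the 5 libraries (CPM is the count of a gene relative to the total of its library, after TMM scaling).

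Poly(A) libraries are made by capturing the tails of mature transcripts and breaking the RNA or copying it in pieces, so that a long transcript gives more reads than a short one at the same number of copies. Immediate-early genes, such as those of the Fos and Egr families, are switched on by growth factors, calcium or stress without the need for new protein. Hypoxia-response genes are driven by the HIF transcription factors, which are degraded while oxygen and the prolyl hydroxylases act on them, and many of them serve glycolysis, vessel growth and the removal of mitochondria.

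The library held 30660265 counts, against 33884066 to 36492134 in the other 4, and at least 1 count on 19244 genes, against 21866 to 22605. Its TMM factor was 0.881, and those of the others were 1.02 to 1.05. The neuronal label of the line rested on few genes, since 5 of 19 neuronal and progenitor markers passed 5 CPM (Nes, Vim, Map2, Tubb3 and Eno2) and 7 were at 0 in every library, Snap25, Dcx and Gria2 among them. None of 7 endothelial and none of 8 epithelial markers passed the filter. Of 10 microglial and leukocyte markers 2 passed, Cd68 and Tmem119, while Ptprc, Itgam, Tyrobp and C1qa were at 0 in all 5 libraries. The summed level of these 10 markers was 27.9 to 32.0 CPM in the other libraries and 51.7 CPM in the library labelled siRNA596 replicate 2. The summed level of the 8 astrocyte markers was 190 to 271 CPM against 118 CPM, and that of the 10 fibroblast markers 4945 to 5551 CPM against 3924 CPM. The 19 neuronal and progenitor markers together stood at 3170 to 3875 CPM against 4820 CPM. Most of them did not follow this sum. Of the 5 compared, 4 were below the mean of the other 4 libraries on the log2 scale and 1 above it. Their median log2 difference was -0.30. S100a4, a fibroblast marker at 3.62 CPM on average in the others, was higher here and passed the filter only through this library. With the trend with length and GC content described below taken off, the median log2 difference of the markers compared was -0.41 for neuronal ones. It was -0.04 for microglial, -0.19 for astrocyte and 0.28 for fibroblast ones. The part of these markers in the results below was not tested, and in bulk RNA a smaller share of cells of a type and less RNA per cell cannot be told apart.

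Gas5 (ENSMUSG00000053332), the targeted gene and a host of small nucleolar RNAs, lies on the plus strand of GRCm38 at chr1:161034422-161038539. It stood at 90.8 CPM in NC replicate 1, 76.3 CPM in NC replicate 2, 60.0 CPM with siRNA210, 66.2 CPM in siRNA596 replicate 1 and 175 CPM in the library labelled siRNA596 replicate 2. The library was thus the highest of the 5, against its label. Its difference, which throughout is the log2 CPM of the library minus the mean log2 CPM of the other 4, was 1.27 for Gas5. The trend, taken at the longest annotated transcript of Gas5 and its GC content, gave 0.09 of this, and 1.18 remained. Across the alternative settings given at the end, the remainder of Gas5 ran from 0.99 to 1.71. How much of the difference went with length and GC content thus depended on the setting. Most of the compared hosts of small nucleolar RNAs were also high in this library before the trend was taken off, as given further below. What the high level of Gas5 owes to the siRNA was not tested.

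A gene was called higher or lower when its difference passed 1 on the log2 scale, which is 2-fold, and the library lay outside the range of the other 4. With 1 library against 4 no test was run, since an exact permutation test can give no p below 0.2, and the calls describe this library and not the siRNA. Of the 10571 genes, 1589 (15.0%) were called higher and 1834 (17.3%) were called lower. For each of the other 4 libraries, set against the remaining 3 of those 4, the number of genes past 2-fold was 4, 67, 1 and 0 in the order NC replicate 1, NC replicate 2, siRNA210 and siRNA596 replicate 1. Scaling by library size alone moved the median of all genes from -0.02 to -0.25 and gave 1045 genes higher and 2563 lower, so that the share of higher genes among those called was 29.0% in place of 46.4%. With the size factors of DESeq2 it was 49.8%. Directions below are relative to the median of all genes under TMM.

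The difference followed transcript length (Spearman rho = -0.70 across 10565 genes with an annotated length, which are not independent replicates). In 10 equal groups of genes by length, the median difference was 1.28 in the shortest (983 bases at the median) and -1.22 in the longest (8383 bases). In the shortest group 730 of 1057 genes (69.1%) were called higher, and in the longest 679 (64.2%) were called lower. For the other 4 libraries this rho was between -0.18 and 0.10. The rho with GC content was 0.31 and lay within the range of the others, which ran from -0.24 in NC replicate 1 to 0.32 with siRNA210. When genes were divided into 3 classes by length and 3 by GC content, short genes of low GC content had a median difference of 0.46 and short genes of high GC content 0.89, and for long genes these values were -0.96 and -0.54. A smooth trend with both features, fitted over genes, took up an r2 of 0.455 of the difference in this library and 0.00302 to 0.0992 in the other 4.

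**Figure D1:**
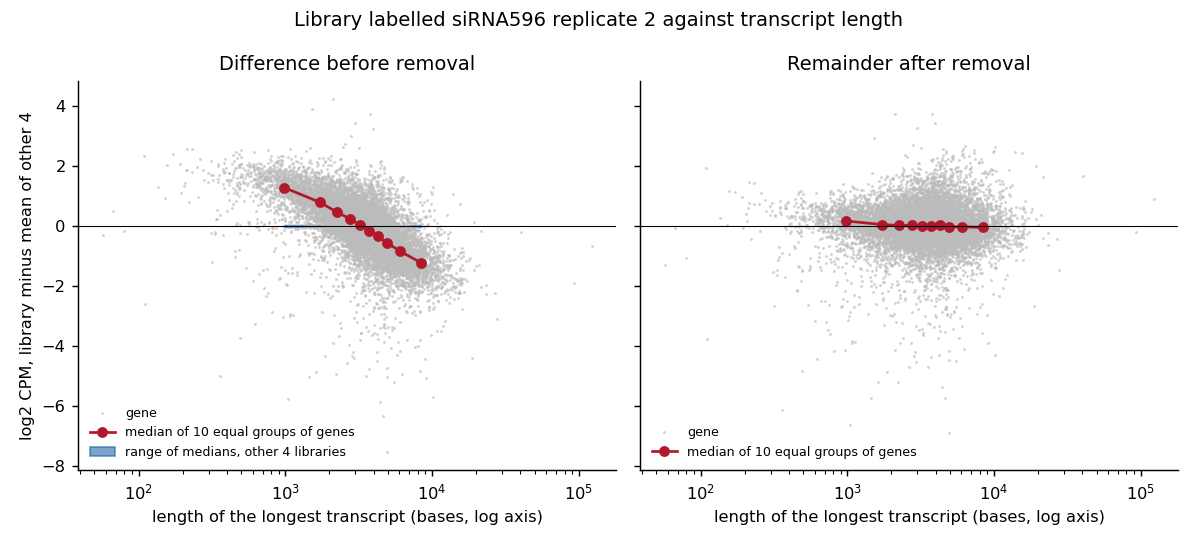
Each grey point is a gene, with the length of its longest annotated transcript in bases on a log axis and the log2 CPM of the library labelled siRNA596 replicate 2 minus the mean of the other 4 on the other axis, before (left) and after (right) the trend with length and GC content was taken off. The red medians of 10 equal groups of genes run from 1.28 to -1.22 before and from 0.17 to -0.05 after, and the blue band of the other libraries' medians lies close to 0.

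Taking the trend off lowered the variance of the difference by 45.6%. What was left for each gene is called the remainder here, and the rule for a call was applied to it in the same way. It left 683 genes (6.46%) called higher and 664 genes (6.28%) called lower. Of the 1347 genes called after removal, 916 had been called in the same direction before (26.8% of those called before and 68.0% of those called after), 431 were called only after it, and 0 turned direction. The remainder still ran with the length of the coding sequence (rho = -0.26), with the number of exons (-0.17) and with the span of the gene on the chromosome (-0.16), while its rho with the length of the longest transcript was -0.05 and with that of the 3' untranslated region -0.04. The trend was thus not taken off in full, and remainders of short coding sequences were on the high side.

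The genes of the large assemblies built from many small proteins were high in the library before removal. Of 79 cytosolic ribosomal proteins compared, 78 were called higher and 0 lower, with a median difference of 1.73, and their summed level was 35557 to 39527 CPM in the other libraries and 120145 CPM here. Rplp2, a protein of the ribosomal stalk, stood at 323, 334, 335 and 339 CPM in the other libraries, in the order used above, and at 1689 CPM in this one, a difference of 2.34. Rps10 had the lowest difference of the list, 0.61, with 5.72 to 6.18 CPM in the other libraries and 9.07 CPM here. No library but this one stood out for either gene, and the groups did not overlap. After removal 23 of the 79 were still called higher and 0 lower, with a median of 0.67, at a background of 6.46% over all genes. The background of genes called higher before removal was 15.0%.

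The protein machines of the mitochondrion that are encoded in the nucleus went the same way. Mitochondrial ribosomal proteins had a median difference of 1.45 before removal and 0.82 after it, with 63 of 79 called higher before and 32 after. Mrpl11, of the large subunit, stood at 23.5 to 28.4 CPM in the other libraries and at 111 CPM here. Its remainder was 2.11. Nuclear-encoded subunits of oxidative phosphorylation had a median of 1.55, with 65 of 77 called higher, and 0.53 after removal with 13 called higher. Atp5e, a small subunit of ATP synthase, was the highest of them at 55.7 to 59.5 CPM against 279 CPM, whereas Sdha, the large flavoprotein of complex II, was at 258 to 284 CPM against 256 CPM. Timm and Tomm proteins, which carry precursors into the mitochondrion, had medians of 1.30 and 0.59, with 16 and then 7 of 24 called higher. None of the members of these lists was called lower, before or after. Over all genes 15.0% were called higher and 17.3% lower before removal, and 6.46% and 6.28% after it.

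The 10 transcripts of the mitochondrial genome that were compared were divided before removal, when 7 had a difference above 0 and 3 below it, with a median of 0.73. None was called higher and 2 were called lower (20%), before and after removal. Before it this share was near the 17.3% of all genes, and after it 6.28% of all genes were called lower. The median remainder was -0.20, with 9 of 10 below 0, but its sign depended on the length taken for a gene, as it was 0.88 when the trend was fitted on the median annotated transcript. The 2 called lower were mt-Co1 and mt-Nd5, which encode the core subunit of complex IV and a large subunit of complex I. For mt-Co1 the levels were 6822, 5595, 6344 and 6555 CPM in the other libraries and 2934 CPM here, a difference of -1.11 and a remainder of -1.64. For mt-Nd6 they were 189 to 239 CPM against 382 CPM, a difference of 0.85. All 13 protein-coding transcripts of the mitochondrial genome took 1.07% of the counts of the library and 1.32% to 1.5% of those of the others.

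Other machines of small subunits were high before removal, and to different degrees after it. The shares called over all genes were 15.0% higher and 17.3% lower before removal, and 6.46% and 6.28% after it. The Sm and LSm proteins, the rings of the spliceosome and of RNA decay, kept the largest median remainder of these lists, 0.93, with 8 of 20 called higher after and 18 before. Proteasome subunits had medians of 1.31 and 0.59, with 27 of 39 called higher before and 7 after. Within that list Psmc2, an ATPase of the base, stood at 228 to 247 CPM in the others and 620 CPM here, while Psmd1, its largest scaffold subunit, stood at 215 to 224 CPM against 164 CPM. The RNA polymerase II list gave 1.42 and 0.50, with 9 of 12 and then 2 called higher. It ran from Polr2f, a shared small subunit, at a difference of 2.04, to Polr2a, the large catalytic subunit, at -0.72, and the remainder of Polr2a was 0.08. The chaperonin and prefoldin list had medians of 0.99 and 0.52 (7 of 14 and then 2 called higher). Translation initiation factor 3 had 0.86 and 0.58, with 5 of 12 higher and 1 lower before (Eif3a, its largest subunit) and 4 higher after. Cytosolic aminoacyl-tRNA synthetases, which are enzymes of larger size, had a median of 0.50 that removal left at 0.47. Of these 22 genes, 2 and then 1 were called higher (9.09% and 4.55%), below the shares over all genes.

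**Figure D2:**
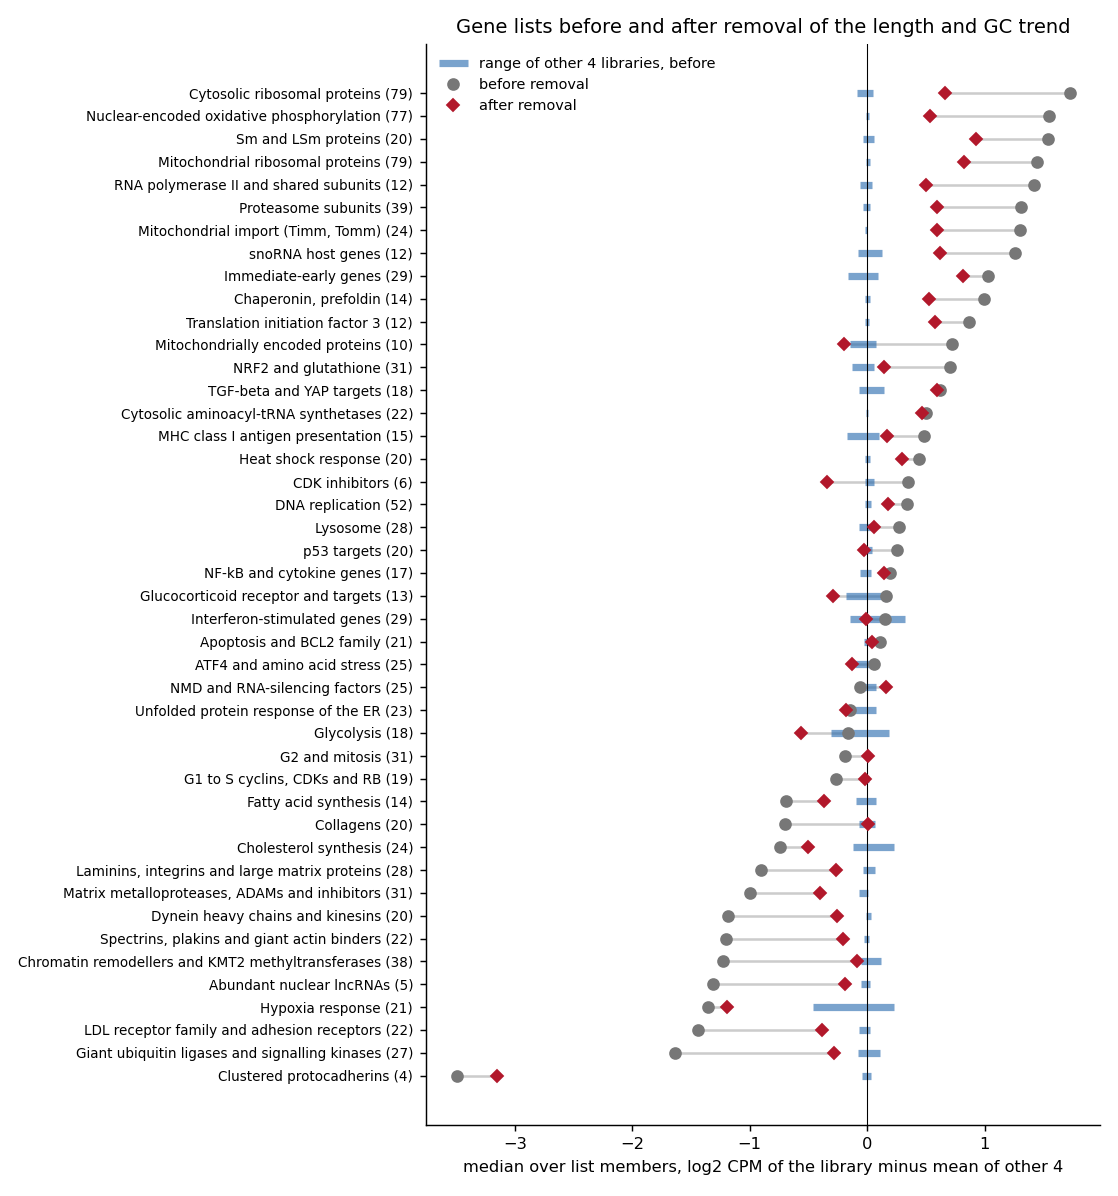
Median over the members of each gene list of the log2 CPM of the library minus the mean of the other 4 libraries, before (grey circles) and after (red diamonds) removal of the trend with length and GC content, with the number of members compared in brackets and the range of the other 4 libraries' medians before removal in blue. Ribosomal proteins moved from 1.73 to 0.67 and the giant ubiquitin ligases from -1.63 to -0.28, whereas the hypoxia response went from -1.36 to -1.20 and the immediate-early genes from 1.03 to 0.82.

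Families of very long transcripts were low before removal, and most of them came close to 0 after it. The LDL receptor family and adhesion receptors had a median difference of -1.44 with 19 of 22 called lower (background 17.3%), and a median remainder of -0.38 with 2 called lower (background 6.28%). Spectrins, plakins and giant actin binders had -1.20 and -0.20, with 13 of 22 and then 2 called lower. Dynein heavy chains and kinesins had -1.18 and -0.26 (13 of 20 and then 2), chromatin remodellers and KMT2 methyltransferases -1.23 and -0.08 (25 of 38 and then 3), and giant ubiquitin ligases and signalling kinases -1.63 and -0.28 (23 of 27 and then 2). None of these 5 lists held a member called higher, before or after. Laminins, integrins and large matrix proteins had -0.90 and -0.26, with 14 of 28 and then 3 called lower, and collagens -0.70 and 0.01, with 6 of 20 and then 2. These remainders depended on the length taken for a gene, and with its median annotated transcript they were further from 0, as given at the end for some of the lists.

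Single members of those lists kept a low remainder. Vcl, which encodes the focal adhesion protein vinculin, stood at 364, 396, 368 and 366 CPM in the other libraries and at 22.2 CPM here, with a difference of -4.06 and a remainder of -3.43. Notch1, a receptor for cell-bound ligands, was at 45.3 to 57.6 CPM against 7.37 CPM, and its remainder was -1.79. Atm, the kinase that responds to DNA breaks, was at 83.5 to 120 CPM against 7.44 CPM, with a remainder of -2.26. In each of these genes the library was far below all of the others. Members of the same lists lay on the other side of the trend, as Flna, the actin cross-linker filamin A, stood at 1453 to 1845 CPM against 1240.1 CPM, with a difference of -0.37 and a remainder of 0.61. Setd1a, a histone H3 methyltransferase, was at 35.5 to 42.4 CPM against 40.8 CPM, within the range of the others, with a remainder of 0.73.

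The clustered protocadherins, adhesion proteins chosen in each neuron from a row of alternative first exons, differed from the other long families. Of 57 genes on the list 4 were compared, and all 4 were called lower before and after removal. Their median difference was -3.50 and their median remainder -3.15. Of all genes 17.3% were called lower before removal and 6.28% after it. Pcdhgc3 stood at 42.0, 48.5, 43.7 and 44.9 CPM in the other libraries and at 6.70 CPM here, and Pcdhgc5 at 9.15, 8.11, 8.82 and 7.81 CPM against 0.370 CPM. The 4 genes share their last exons, so their counts depend on how shared reads were assigned and they are not independent.

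Of the hypoxia-response list, 21 of 24 genes were compared (Slc2a3, Adm and Car12 were not), and removal of the trend did not bring them closer to 0 than a median of -1.20, from -1.36 before. None was called higher, 13 were called lower before (61.9%, against 17.3% of all genes) and 15 after (71.4%, against 6.28%). All 21 remainders were below 0. The list's median length was 3451 bases, close to the 3478 bases of all genes compared. Ero1l, the oxidase that forms disulfide bonds in the endoplasmic reticulum, stood at 614, 264, 685 and 631 CPM in the other libraries and at 48.5 CPM in this one. Its difference was -3.41 and its remainder -2.85, the lowest difference of the list. Car9, a carbonic anhydrase of the cell surface, had the lowest remainder, -3.02, with 69.8, 59.9, 73.7 and 67.9 CPM against 12.8 CPM. In both genes the library lay below all of the others, and NC replicate 2 was the next lowest.

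Other members are named here after their values were seen. Ndrg1, a stress-responsive gene, was at 420, 198, 485 and 408 CPM and at 53.7 CPM in this library. Vegfa, the growth factor of blood vessels, was at 183, 109, 203 and 194 CPM against 41.3 CPM, and Bnip3, a receptor for the removal of mitochondria, at 228, 126, 246 and 214 CPM against 48.7 CPM. Their remainders were -2.49, -1.98 and -2.47. The range of the other libraries shows that NC replicate 2 shared the direction to a smaller extent, with a list median of -0.46 where the remaining 3 had 0.10 to 0.23. Without NC replicate 2, 15 genes of the list were called lower before removal and 17 after. The summed level of all 24 genes was 5879, 3908, 6415 and 5778 CPM in the other libraries and 2294 CPM in this one. Not all members were low, since Fam162a, a mitochondrial protein, stood at 334 CPM between NC replicate 2 (200 CPM) and siRNA596 replicate 1 (346 CPM), and Higd1a, a protein of the respiratory chain, at 187 CPM within 115 to 197 CPM. Plod1, a collagen lysyl hydroxylase, had a remainder of -0.05.

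Genes of glycolysis, several of which are HIF targets as well, lay close to all genes before removal. Of 18 genes 8 had a difference above 0, with a median of -0.17, which was 0.00082 against the NC libraries alone. The 3 called lower made up 16.7% of the list, near the 17.3% of all genes, and 1 was called higher. The median remainder was -0.56, with 16 of 18 below 0, and 0 were called higher and 3 lower (16.7% against a background of 6.28%). The lowest difference was that of Hk2, a hexokinase, at 117, 106, 125 and 117 CPM in the other libraries and 36.6 CPM here. Pgam1, a phosphoglycerate mutase, had the lowest remainder, -1.86, with 1022 to 1406 CPM against 564 CPM. Both genes were below the range of the other 4. In NC replicate 2 the median of the list was -0.31, also the lowest among the other libraries.

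The immediate-early list was split, with most members high and a few low. Of 29 genes compared (Dusp2 and Nr4a3 were not), 15 were called higher and 3 lower before removal, and 12 higher and 5 lower after it, with medians of 1.03 and 0.82. The higher ones made up 51.7% and then 41.4%, against 15.0% and 6.46% of all genes. The lower ones made up 10.3% and then 17.2%, against 17.3% and 6.28%. Fos, a subunit of the AP-1 transcription factor, stood at 6.55, 7.91, 7.73 and 6.49 CPM in the other libraries and at 137 CPM in this one, which was 19.0-fold higher and the highest difference of all compared genes, 4.25. Fosb, a relative of Fos, was at 3.86, 3.04, 4.05 and 3.09 CPM against 46.6 CPM, with a difference of 3.72 and a remainder of 3.74. Ier2, an immediate-early nuclear protein, was at 57.6, 66.7, 61.5 and 60.1 CPM against 929 CPM. The library lay far above the others in all 3 genes, and the others were close to each other. The zinc-finger factors Egr2 and Egr3 had differences of 3.43 and 3.24, Zfp36, which hastens mRNA decay, 2.99, and the orphan nuclear receptor Nr4a1 2.73, with remainders of 3.28, 3.42, 2.70 and 2.29. Fosb, Egr2 and Egr3 averaged 3.51, 2.60 and 2.24 CPM over the other 4 libraries, so they passed the filter of 5 CPM only through this library, in which they were high. With the filter on the mean of the other 4 alone, an alternative chosen after the values were seen, 26 genes of the list were compared. Of these, 12 were called higher and 3 lower before removal, and 9 higher (6.50% over all genes under that filter) and 5 lower after it, with medians of 0.92 and 0.62. The 8 protein-coding genes with the highest differences were then Fos, Ier2, Zfp36 and Nr4a1 of this list, and Ccn2, Nme1, Hes1 and Gadd45g.

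On the low side of the same list was Dusp4, a phosphatase of the MAP kinases, at 33.1, 13.2, 27.8 and 30.0 CPM in the other libraries and 4.26 CPM here, with a remainder of -2.86. The factor Atf3, named after its values were seen, was at 44.1, 17.0, 40.1 and 35.3 CPM against 11.9 CPM, and its remainder was -2.02. The other genes called lower after removal were Fosl1, Maff and Klf4, all of them with differences between -0.81 and -0.50 before it. NC replicate 2 was the lowest of the other 4 libraries for each of these 5 genes. The summed level of all 31 genes was 1604 to 2043 CPM in the other libraries and 5262 CPM in this one.

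**Figure D3:**
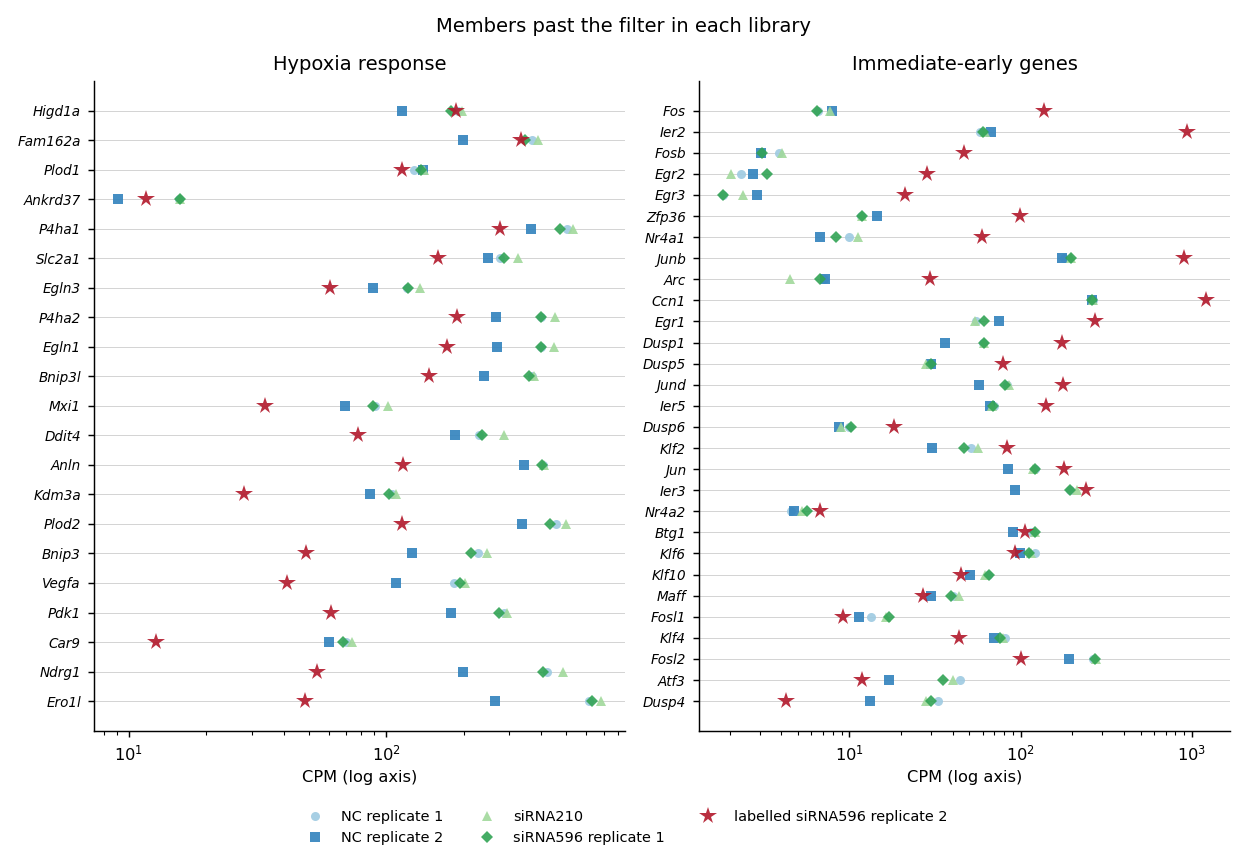
CPM in each of the 5 libraries (log axis) for the 21 hypoxia-response genes (left) and the 29 immediate-early genes (right) past the filter, each in the order of their difference, with a red star for the library labelled siRNA596 replicate 2. The star lies left of the other 4 libraries for Ero1l (48.5 CPM) and Car9 (12.8 CPM) and right of them for Fos (137 CPM) and Ier2 (929 CPM), and NC replicate 2 (blue squares) is the next lowest library for most hypoxia-response genes.

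The promoters of these genes were searched for the letters at the core of the HIF response element and of the cyclic AMP response element, through which the CREB factors act on Fos and its relatives. The search covered the 250 bases before each annotated start (RefSeq, GRCm38.p6), on both strands. ACGTG was present for 14 of the 18 hypoxia-response genes with a promoter in the table (77.8%) and for 11 of the 13 of them called lower after removal, against 18.5% of all 27025 genes of the table and 26.4% of the 8235 of them compared here. TGACG was present for 14 of 22 immediate-early genes (63.6%) and for 7 of the 8 called higher after removal, against 19.8% of all genes and 32.6% of those compared. The pair of motifs overlaps where TGACGTG is read. These matches are a description, and whether a factor was bound was not measured. Hypoxia-response genes are known for their control by HIF, and immediate-early genes in part for that by CREB. The shares could thus be high whatever this library showed, and they say nothing about it. Fosb is among the 7, although it averaged 3.51 CPM in the other 4 libraries and passed the filter only through this one. Stretches of 8 promoters are shown to let the matches be read, so every one of them holds the motif. They are, from each list, the 4 genes with the remainders furthest from 0 among those called after removal that have a single promoter in the table with a match. Ddit4, an inhibitor of mTOR signalling, had a remainder of -2.41, and Ccn1, a matricellular protein, 1.61. Each is given 5' to 3' on the strand of its gene, with the match in capitals. For hypoxia-response genes the capitals mark ACGTG, or CACGT where it is read on the other strand, and both in the overlapping match of Bnip3. They are chr4:43506983-43507025 (plus strand), chr14:45318606-45318660, chr7:138909584-138909638 and chr10:59951928-59951982 (minus strand), in the order of the lines.
Car9: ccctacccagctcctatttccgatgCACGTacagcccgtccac
Ero1l: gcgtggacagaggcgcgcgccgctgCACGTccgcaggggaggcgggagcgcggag
Bnip3: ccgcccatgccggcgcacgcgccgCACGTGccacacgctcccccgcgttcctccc
Ddit4: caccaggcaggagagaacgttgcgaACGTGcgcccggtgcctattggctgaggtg

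For immediate-early genes the capitals mark TGACG, or CGTCA on the other strand. The stretches are chr12:85473799-85473853 (plus strand), chr7:19310076-19310130 (minus strand), chr15:101266781-101266835 (plus strand) and chr3:145650014-145650068 (minus strand).
Fos: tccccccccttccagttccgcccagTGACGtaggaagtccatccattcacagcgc
Fosb: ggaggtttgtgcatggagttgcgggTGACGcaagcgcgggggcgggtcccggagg
Nr4a1: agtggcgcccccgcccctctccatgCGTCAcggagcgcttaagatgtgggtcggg
Ccn1: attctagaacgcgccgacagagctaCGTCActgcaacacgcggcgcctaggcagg

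Targets of TGF-beta and YAP were also on the high side. Their median difference was 0.62 and their median remainder 0.59, with 7 of 18 called higher and 1 lower before, and 5 higher and 0 lower after. The higher ones made up 38.9% and then 27.8%, against 15.0% and 6.46% of all genes. Ccn2, a matricellular protein, stood at 19.5, 39.0, 19.4 and 15.1 CPM in the other libraries and at 134 CPM here, with a remainder of 2.36. Id1, an inhibitor of basic helix-loop-helix factors, was at 56.5, 92.0, 63.8 and 64.5 CPM against 341 CPM, and Acta2, smooth muscle actin, at 137, 272, 158 and 153 CPM against 711 CPM. NC replicate 2 was the highest of the other 4 libraries for these 3 genes, below this library in each. The remaining 2 called higher after removal were Id3 and Ccn1, and Ccn1 is also on the immediate-early list. Id1, Id3, Acta2 and Ccn1 are named after their values were seen.

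Genes of cholesterol synthesis were low, with a median difference of -0.74 and a median remainder of -0.51. Of 24 genes compared 1 was called higher and 9 lower before, and 0 higher and 4 lower after. The lower ones made up 37.5% and then 16.7%, against 17.3% and 6.28% of all genes. Idi1, the isomerase that makes dimethylallyl diphosphate, stood at 35.1, 49.3, 40.3 and 39.0 CPM in the other libraries and at 5.52 CPM here, with a remainder of -2.77. Low remainders were also found for Insig1, which holds SREBP in the endoplasmic reticulum (-1.72), and for Fdps, the synthase of farnesyl diphosphate (-1.63), both named after their values were seen. Ebp, a sterol isomerase, was the gene called higher before removal, at 51.6 to 62.2 CPM against 119 CPM. Genes of fatty acid synthesis had a median difference of -0.69, with 5 of 14 called lower (35.7%). Their median remainder was -0.37, with 1 called lower (7.14%, near the 6.28% of all genes). That gene was Scd1, the stearoyl-CoA desaturase, at 240 to 266 CPM in the other libraries and 81.5 CPM in this one.

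Lists of the cell cycle had medians between -0.27 and 0.34 before removal and between -0.01 and 0.17 after it. Of the 52 DNA replication genes, 38 had a difference above 0 and 34 a remainder above 0. DNA replication genes had a median difference of 0.34 and a median remainder of 0.17, with 3 of 52 called higher and 2 lower before, and 4 higher and 2 lower after. Genes of G2 and mitosis had -0.19 and 0.01, with 2 of 31 higher and 6 lower before, and 3 and 2 after. Prc1, which bundles the microtubules of the spindle midzone, was the lowest of them at 159 to 175 CPM in the other libraries and 39.5 CPM here. Cyclins, CDKs and RB proteins of G1 and S had -0.27 and -0.01, with 1 of 19 called higher before and after, and 3 and then 1 lower. Before removal 5.26% to 6.45% of the 3 lists were called higher (15.0% of all genes) and 3.85% to 19.4% lower (17.3%). After it 5.26% to 9.68% were higher (6.46%) and 3.85% to 6.45% lower (6.28%). The highest of these shares were those of G2 and mitosis.

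Cdkn1a, which encodes the CDK inhibitor p21, was the lowest of the 6 CDK inhibitors compared. It stood at 66.4 CPM in NC replicate 1, 31.7 CPM in NC replicate 2, 90.1 CPM with siRNA210, 71.0 CPM in siRNA596 replicate 1 and 11.8 CPM in the library labelled siRNA596 replicate 2. Its difference was -2.35 and its remainder -2.95, and the library was below all of the others. Cdkn2a, which encodes p16 and p19ARF, was at 336 to 389 CPM in the other libraries and at 900 CPM here, a difference of 1.35 of which 0.01 remained. Cdkn1a is also a target of p53, but was kept off the list of the other p53 targets, of which 20 were compared. That list had a median difference of 0.25 and a median remainder of -0.03, with 2 called higher and 3 lower before, and 2 and 1 after. Before removal 10% were higher and 15% lower (15.0% and 17.3% of all genes), and after it 10% and 5% (6.46% and 6.28%). Btg2, an antiproliferative target of p53, was at 13 to 18.2 CPM in the other libraries against 41.0 CPM, and Trp53inp1, a target in autophagy, at 6.73 to 10.1 CPM against 1.41 CPM.

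Among the remaining lists of stress and immune genes, that of NRF2 and glutathione genes was the highest before removal. Its median difference was 0.71, with 11 of 31 called higher (35.5%, against 15.0% of all genes) and 1 lower. Its median remainder was 0.15, with 6 called higher (19.4%, against 6.46%) and 2 lower. It ran from Sod1, superoxide dismutase, at 245 to 275 CPM in the other libraries and 802 CPM here, to Hmox1, heme oxygenase, at 402, 125, 429 and 371 CPM against 206 CPM. The value of Hmox1 lay above NC replicate 2 and below the other 3, and its remainder of -1.38 was the lowest of the list. Heat shock genes had medians of 0.45 and 0.29, genes of the unfolded protein response -0.15 and -0.18, and ATF4 targets 0.06 and -0.13. Interferon-stimulated genes had 0.15 and -0.01, NF-kB and cytokine genes 0.19 and 0.14, MHC class I genes 0.48 and 0.17, and apoptosis genes 0.11 and 0.04. Under scaling by library size alone, the medians before removal of the ATF4, interferon, NF-kB and apoptosis lists and of the glucocorticoid list below were under 0, between -0.17 and -0.04. Lysosomal genes had medians of 0.27 and 0.06, with 2 of 28 called in each direction before and after.

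Of the metalloproteases, ADAMs and their inhibitors, 31 of 84 genes were compared, with a median difference of -0.998 and a median remainder of -0.41, and with 15 called lower and 1 higher before and 5 lower after. The lower ones made up 48.4% and then 16.1%, against 17.3% and 6.28% of all genes. The inhibitors stood at both ends of the list. Timp1, on a short transcript, was at 69.1 to 82.8 CPM in the other libraries and at 229 CPM here, and Timp3, on a longer one, at 30.3 to 47.7 CPM against 6.44 CPM. Their remainders were 0.35 and -2.12. Factors of nonsense-mediated decay and RNA silencing had medians of -0.06 and 0.16. The glucocorticoid receptor and its targets, a list of interest because Gas5 can bind that receptor, had 0.16 (-0.07 under scaling by library size alone) and -0.29, with 3 of 13 called in each direction before and 2 in each after. These were 23.1% and 15.4%. Of all genes 15.0% were called higher and 17.3% lower before, and 6.46% and 6.28% after. Sgk1, a kinase induced by the receptor, was at 55.8 to 68.8 CPM in the other libraries and 151 CPM here, and Klf9, another of its targets, at 13.2 to 21.2 CPM against 3.55 CPM. The library was thus outside the range of the others for both, in opposite directions.

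The genes with the lowest differences were nearly without reads in this library. Atp7a, which encodes a copper-transporting ATPase (X chromosome of GRCm38, 106027276 to 106124926), had 1777, 2121, 1902 and 1813 counts in the other libraries and 6 counts here. Its difference of -7.55 was the lowest of all compared genes, of which the trend gave -0.64 and -6.91 remained. Irs1, the adaptor of the insulin receptor, had 1282, 1522, 1216 and 1262 counts against 28, with a difference of -5.06 and a remainder of -3.91. Sacm1l, a phosphatase of phosphoinositides, had 1456, 1901, 1731 and 1456 counts against 36, and Lrch3, a protein with leucine-rich repeats, had 1731, 1855, 1823 and 1639 counts against 34. The other 4 libraries were close to each other for each of these genes. Rbm41, Snx29, Slfn3 and 4931406P16Rik had differences of -4.77, -4.39, -4.32 and -4.94. Zc3h11a, an RNA-binding protein, had 586, 569, 426 and 469 counts against 5, and Gm38394, whose annotated span lies within the same stretch of chromosome 1 on the same strand, had a difference of -5.70, so reads of the pair cannot be assigned with certainty. The same holds for Adnp, a chromatin protein with 398, 487, 366 and 431 counts against 8, which overlaps another annotated gene.

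**Figure D4:**
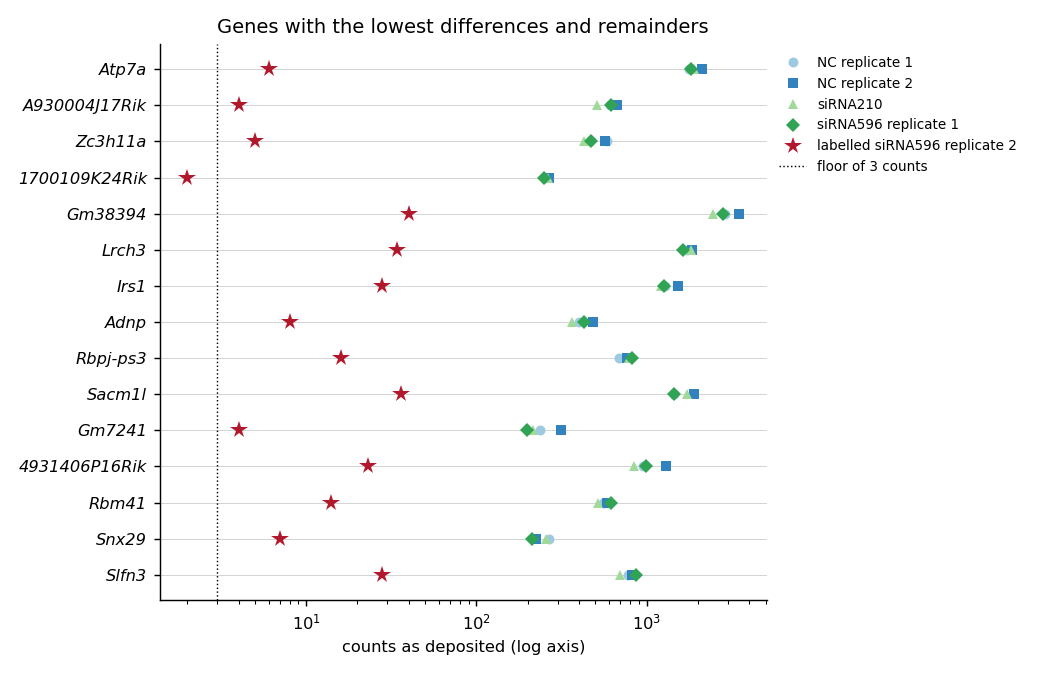
Counts as deposited, on a log axis, in each of the 5 libraries for the genes with the lowest differences and remainders, protein-coding and non-coding, with a red star for the library labelled siRNA596 replicate 2 and a dotted line at the floor of 3 counts. The other 4 libraries lie close together for each gene, between 1777 and 2121 counts for Atp7a, and the star lies far to their left, at 6 counts for Atp7a.

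The non-coding genes with the lowest differences were of several kinds. A930004J17Rik, annotated as TEC (a transcript to be experimentally checked, mostly a single unspliced exon), had 610, 671, 513 and 617 counts in the other libraries and 4 counts here. 1700109K24Rik, an antisense transcript, had 253, 267, 263 and 251 counts against 2, at the floor of 3 counts below which no fold is given. Rbpj-ps3 and Gm7241 are processed pseudogenes, with differences of -5.03 and -5.01. The highest 4 were processed pseudogenes as well, Cox6c2, Gm8129, Gm5425 and Gm4950, with differences of 2.45 to 2.56, and all counts of processed pseudogenes are uncertain because their reads can be shared with the parent gene.

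With no filter on CPM, 42 genes had at least 50 counts in each of the other 4 libraries and at most 3 in this one, and 0 genes had the reverse. Of the 42, 19 were TEC, 11 other non-coding, 7 pseudogenes and 5 protein coding, and 1 of them had passed the filter of 5 CPM. The protein-coding genes were Slc24a5, Gm14412, Sycp1, Pvrig and H2-T24, named after their values were seen. H2-T24, a non-classical MHC class I gene with close relatives, had 193, 188, 139 and 169 counts in the other libraries and 1 in this one. Gm14412 had 175, 184, 188 and 207 counts against 2. Within protein-coding genes, 14 of the 42 lay on the same strand, and 13 of these were TEC. That position is common for TEC genes. Of those that averaged 1 CPM or more, 66 lay there, 62 outside protein-coding genes and 17 on the opposite strand.

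The position of non-coding genes was set beside their differences, over 12816 genes that averaged 1 CPM or more, a split chosen after the values were seen. Over these genes 2006 (15.7%) were called higher and 2432 (19.0%) lower, with a median of -0.05. TEC genes that lay inside a protein-coding gene on the same strand had a median difference of -3.13 over 66 genes, with 47 called lower (71.2%) and 3 higher. Their summed level was 334, 334, 330 and 340 CPM in the other libraries and 57.0 CPM here. TEC genes outside protein-coding genes had a median of -0.90 over 62 genes, with 29 called lower (46.8%), and 220, 213, 193 and 208 CPM against 150 CPM. Those on the opposite strand of a protein-coding gene had a median of -1.45 over 17 genes, with 12 called lower (70.6%), a share close to that on the same strand. Sense intronic transcripts, which are also read from the strand of their host, had a median of -1.46 over 19 genes, and antisense transcripts -0.91 over 71 genes inside a host and -0.26 over 116 outside.

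TEC genes were not long, with a median of 2389 bases inside a host on the same strand and 2388.5 bases outside, against 3261 bases for all genes. Their median remainders were -2.81 and -0.91, so removal of the trend moved them little. After it 1182 of the genes that averaged 1 CPM or more and had a length (9.23%) were called higher and 1166 (9.11%) lower. Of the 66 TEC genes inside a host on the same strand 49 were called lower. Those on the opposite strand had a median remainder of -2.24, with 10 of 17 called lower. The strand setting of the authors' read counting is not given in the sources used here, and without strand the reads of a gene and of a partner on the other strand cannot be told apart. Reads inside a host on its own strand cannot be told apart under either setting.

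**Figure D5:**
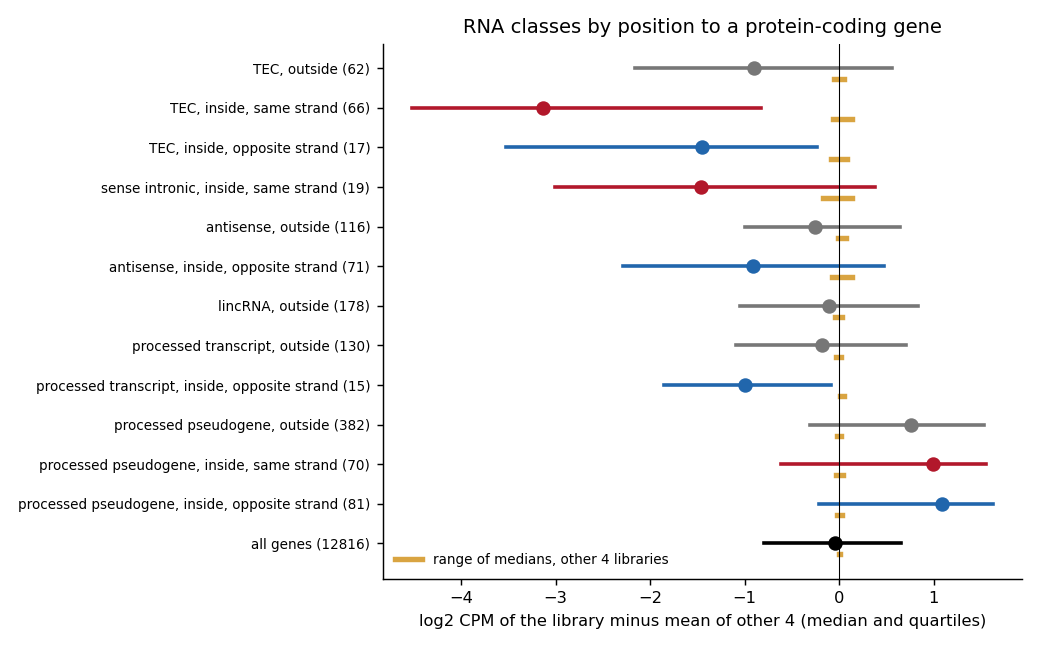
Median (point) and quartiles (line) of the log2 CPM of the library minus the mean of the other 4 for classes of genes by their position to a protein-coding gene, with the number of genes in brackets and the range of the other 4 libraries' medians in yellow. TEC genes inside a protein-coding gene on its strand sit lowest, at a median of -3.13, processed pseudogenes sit above 0 (0.75 outside protein-coding genes), and all 12816 genes together sit at -0.05.

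Abundant long non-coding RNAs of a list drawn up as nuclear were low before removal, although their place in the cell was not measured. Of the 5 that were compared, 4 were called lower before removal (80%, against 17.3% of all genes) and 0 after it (against 6.28%). Their medians were -1.31 and -0.18, and all of them are long. The second value depended on the length taken for a gene, and was -1.13 with the median annotated transcript. Malat1, found in nuclear speckles, had 47315, 54236, 45780 and 46688 counts in the other libraries and 9541 counts in this one, with a difference of -1.93 and a remainder of -0.84. Tug1 was at 89.5 to 96.3 CPM against 62.1 CPM, with a remainder of 0.57. The hosts of small nucleolar RNAs, which carry those RNAs in their introns, went the other way, with a median difference of 1.255. The difference of Gas5, 1.27, is itself among the values of that median, so its closeness to the median is partly built in. Before removal 8 of the 12 hosts were called higher (66.7%, against 15.0% of all genes) and 1 lower (8.33%, against 17.3%). After it 2 of the 12 were called higher (16.7%, against 6.46%) and 0 lower (against 6.28%), with a median remainder of 0.62. Gas5 is on this list, and another of the 8, Epb41l4aos, passed the filter only through this library, with 4.58 CPM on average in the other 4. Snhg1 was the highest of them after removal, at 41.6 to 49.5 CPM against 136 CPM and a remainder of 1.58. The remainder of Gas5, 1.18, lay above the list median of 0.62 and below the remainder of Snhg1.

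The high remainders rested in part on how transcript length was taken. Atp5l, a small subunit of ATP synthase with the highest remainder of the oxidative phosphorylation list, 2.67, has a longest annotated transcript of 6310 bases but a median annotated transcript of 576 bases. With the median transcript its remainder was 1.54. For Mrpl17 the lengths were 7300 and 869 bases and the remainders 2.53 and 1.08, and for Snrpc, a protein of the U1 particle, 6107 and 984 bases and 2.40 and 1.09. Ebpl, a relative of the sterol isomerase, kept 2.17 of 2.63, and Rps15a 1.59 of 2.33. Over all genes, those whose longest transcript was more than 4 times the median transcript were called higher after removal in 10.7% of 2320 cases and lower in 4.83%, whereas those with a ratio of up to 1.2 were called higher in 3.68% of 2122 cases and lower in 10.5%. With the median transcript the difference followed length less closely, with a rho of -0.42. The median remainder of the cytosolic ribosomal proteins was then 1.25, that of the nuclear-encoded oxidative phosphorylation genes 1.11, that of the mitochondrially encoded ones 0.88, that of the giant ubiquitin ligases and signalling kinases -1.22 and that of the chromatin remodellers -1.01. The same choice gave -1.48 for the hypoxia-response genes and 1.11 for the immediate-early genes, with 14 of the former called lower and 16 of the latter higher.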

How the data were processed

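Poly(A) RNA of HT22 cells was sequenced in 5 libraries made with a NEBNext Ultra kit. The authors trimmed the reads with Trimmomatic, aligned them with HISAT2 2.1.0, handled the alignments with SAMtools 1.7 and deposited whole read counts per gene from featureCounts 2.0.1 on the Ensembl annotation of GRCm38, without normalization (tool versions from the submitters' processing notes). The strand setting and the rule for multimapping reads are not given in the sources used here. A second deposited table holds the authors' own comparison and was not used.

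Here counts were scaled by TMM and put on the log2 scale as CPM with a prior count of 2 in edgeR 4.0.16 (R 4.3.3), which understates changes of low genes. Lengths, GC content and RNA classes came from GENCODE M21, which held 99.5% of the gene identifiers, and 6 compared genes had no length. For each library the deviation from the mean of the 4 reference libraries was fitted over genes with smooth terms for the log2 length of the longest transcript and for GC content (mgcv 1.9.3), and the fitted trend was taken off. Steps were tested on simulated data that were given the trend fitted here, with the same lengths. That test could not show errors in the length taken for a gene or in the form of the trend. The members and the 54 lists (1497 entries, 1119 compared) were chosen with earlier results of these data known. Named genes are Gas5, the 8 highest and 8 lowest protein-coding genes before and after removal, the 4 highest and 4 lowest non-coding genes and the extremes of each list, others being marked in the text. Values of some genes of these lists are not reported here. Alternatives covered scaling, filter, prior count, reference libraries, each left out in turn, and 7 forms of the trend. Figures were drawn with matplotlib 3.10.9.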

Additional observations from a re-analysis of the deposited data

How the results depend on the processing

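With 1 library the results carry no error of their own, and genes close to 5 CPM are the least precise of those compared. Leaving out each of the other 4 libraries in turn gave 1579 to 1594 genes called higher and 1809 to 1871 called lower before removal, 675 to 722 higher and 650 to 720 lower after it, and a rho with length of -0.70 to -0.68. The difference of Gas5 was then 1.18 to 1.38, hypoxia-response genes called lower were 13 to 15 before and 14 to 17 after removal, and immediate-early genes called higher were 15 before and 12 after. Scaling by library size alone left 1045 genes called higher before removal. A minimum mean of 1 CPM gave 1182 higher and 1166 lower after removal. A minimum of 20 CPM gave 380 lower after removal, and 7 immediate-early genes called higher. With every gene that had a count, 3823 were higher and 4987 lower before removal, 4204 and 3344 after it, and the rho was -0.23. A trend on GC content alone left 1601 higher and 1427 lower. The median transcript in place of the longest gave 1145 and 1256, with a rho of -0.42. The median of 2 astrocyte markers before removal was -0.63 and turned to 0.030 at a minimum mean of 1 CPM. Other counts stayed within 1.5 times the reported value. The minimum of 5 CPM on the mean of the other 4 libraries alone, chosen after the data were seen, gave 1522 higher and 1867 lower before removal and 685 and 678 after it. Of 1716 list medians recomputed under the 20 settings, 1613 had the sign of the reported value. The cause of these changes was not tested, other than that a lower minimum tests more genes. No paired analysis was possible because the comparison sets 1 library against 4 and no test was run.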
